A study of Mus musculus with 6 samples.

Results

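The genes described here are those of the MHC class II antigen presentation machinery and their master regulator Ciita, 10 of the 27179 genes in the count table, chosen by symbol and Entrez gene ID rather than by any measured value. They comprise the invariant chain gene Cd74, the chain genes H2-Aa, H2-Ab1, H2-Eb1 and H2-Eb2, the peptide-editing genes H2-DMa, H2-DMb1, H2-DMb2 and H2-Oa, and Ciita. RNA-seq of polyadenylated RNA was carried out on CD8-negative dendritic cells, enriched and sorted from the spleens of C57BL/6 mice and lysed without culture. Of the 6 libraries, 3 are labelled CpG (numbers 2, 3 and 4), which the design text calls pretreated, and 3 carry the same numbers with no treatment; the design text names them biological replicates. CpG oligonucleotides activate Toll-like receptor 9. In the title of the series the dendritic cells are termed paralysed, following systemic inflammation. The comparison asked whether the class II genes of such cells differ from those of untreated ones. No age, CpG dose, route or interval before collection is stated in the sources used here, nor how many mice made up a library.

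MHC class II molecules display peptides from endocytosed proteins to CD4+ T cells, and dendritic cells carry them at high density. Their alpha and beta chains assemble with the invariant chain, which blocks the groove and directs the complex to endosomes. There H2-DM exchanges the last invariant chain fragment for peptide, and H2-O restrains H2-DM. Ciita is a coactivator that binds no DNA itself and acts through factors sitting on the X and Y boxes of class II promoters. In dendritic cells that mature after a Toll-like receptor signal, transcription of Ciita is classically shut down.

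The libraries held 7855500 to 8228140 counts each, and 1 count equalled 0.123 to 0.127 CPM (counts scaled to a common library size, normalized by the trimmed mean of M-values). The dendritic cell markers were well represented, with Itgax, the integrin CD11c, at 2200 ± 108 CPM and Flt3 at 563 ± 36.2 CPM in untreated libraries (SD, n = 3). Cd8a, against which the cells were sorted, was at 2.48 ± 1.49 CPM there and 3.58 ± 1.69 CPM after CpG. The defining B cell genes Pax5 and Ebf1 had means of at most 0.251 and 0.0819 CPM in either group, and Cd79a had 0.369 to 1.39 CPM per library. Some other listed B cell markers were higher, with untreated means of 29.1 CPM for Cd79b and 19.9 CPM for Ms4a1. The 14 listed markers summed to 646 to 668 CPM without and 602 to 786 CPM with CpG, mostly from Cd22 and Spib. The summed T cell markers stayed between 2.46 and 6.87 CPM. Summed erythroid markers (10 of the 11 in the table detected) were at 31.7 to 118 CPM without and 291 to 1347 CPM with CpG. Summed red pulp macrophage markers, all 10 detected, were at 476 to 605 CPM against 332 to 451 CPM. Most of that sum came from Adgre1, with means of 352 CPM without and 302 CPM with CpG. In bulk samples such as these, fewer cells of a type and less RNA per cell cannot be told apart.

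Of the 10 members, 8 lie in the class II region of chromosome 17, between 34092379 and 34341410 (GRCm38.p6). Ciita lies on chromosome 16 (10480014 to 10531064). RefSeq start-site windows of 300 bases (250 before the start) were matched for 7 members, H2-Aa, H2-Eb1, H2-Eb2, H2-DMa (2 starts), H2-DMb1, H2-DMb2 and H2-Oa. The windows were searched on both strands for the core of the X box, written AACNNATG, and for the core of the Y box, ATTGG, an inverted CCAAT. These letters were chosen with the sequences in view, and their matches in the stretches printed here do not overlap. The X core followed by the Y core at a distance of 20 to 45 bases was present in H2-Eb1, H2-Eb2, H2-DMb1 and H2-DMb2, and in 0.21% of all 32851 windows. Singly, the X core occurred in 8.86% and the Y core in 37.4% of all windows. Of the cores as written, only the Y core was matched in H2-Aa, H2-Oa and 1 window of H2-DMa, and neither in the other window of H2-DMa. H2-Eb1 had a further Y core on the opposite strand, outside the stretch printed. The sequences, from RefSeq for GRCm38.p6, are shown because H2-Eb2, the member called lower, and H2-Eb1, which was not called, carry both cores at the same spacing. H2-Aa is shown as a member in which only the Y core matched the letters used. Matched cores are in capitals, on the gene's strand, 5′ to 3′.
H2-Eb1: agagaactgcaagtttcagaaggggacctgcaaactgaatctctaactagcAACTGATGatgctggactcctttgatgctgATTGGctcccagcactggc
H2-Eb2: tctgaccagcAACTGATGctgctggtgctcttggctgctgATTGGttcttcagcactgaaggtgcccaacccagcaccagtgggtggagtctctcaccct
H2-DMb2: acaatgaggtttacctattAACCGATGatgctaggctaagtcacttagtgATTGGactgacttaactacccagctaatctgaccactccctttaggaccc
H2-DMb1: gtttacctagtAACTGATGatgctaggctg
H2-Aa: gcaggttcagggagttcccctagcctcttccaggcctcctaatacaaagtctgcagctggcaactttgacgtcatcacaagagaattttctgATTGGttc
The stretches lie at chr17:34305727-34305826 for H2-Eb1, chr17:34325535-34325634 for H2-Eb2, chr17:34145109-34145208 for H2-DMb2 and chr17:34153088-34153117 for H2-DMb1, all on the plus strand, and at chr17:34287864-34287963 on the minus strand for H2-Aa. They cover bases -140 to -41 from the start site of the window, except the 30 bases of H2-DMb1, which run from -103 to -74. That site is not always the first base of the gene. In RefSeq, H2-Eb2 begins at 34325503 and H2-DMb2 at 34143229, so their printed stretches lie within the bounds of these genes. From the X core to the end of the Y core, H2-Eb1 and H2-Eb2 had 28 of 35 bases in common, and H2-DMb1 and H2-DMb2 had 32 of 36. The start of the X core lay 30 bases before that of the Y core in both E beta genes and 31 bases before it in both DM beta genes. A match of letters is a description of sequence and shows no binding. The lack of a match to these letters does not show that a promoter has no X or Y box.

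Class II transcripts were among the most counted in these cells, and H2-Eb2 was the only 1 of the 10 whose level passed the test between groups. The 10 genes together took 4.76% to 6.01% of all counts in untreated and 4.38% to 5.29% in CpG libraries. Cd74, H2-Aa, H2-Eb1 and H2-Ab1, in that order, had the highest average CPM of all 11602 genes tested. By edgeR's quasi-likelihood test with Benjamini-Hochberg adjustment over those genes, 1 of the 10 members fell, H2-Eb2, and 0 rose. Over all genes tested, 0.974% were called in either direction, 0.5% lower and 0.474% higher. The median log2 fold change of the 10 members was -0.07, against -0.0054 over all genes tested, and 7 members lay below 0 and 3 above. Leaving out 1 library moved the members' median between -0.13 and 0.034, turning it above 0 without untreated 2 (0.034) and without CpG 3 (0.019). An unadjusted p under 0.05 was reached by 1 member and by 12.8% of all genes. With the replicate number as a block, H2-Eb2 was again the 1 member called, against 8.52% of all genes (3.78% lower and 4.73% higher).

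**Figure D1:**
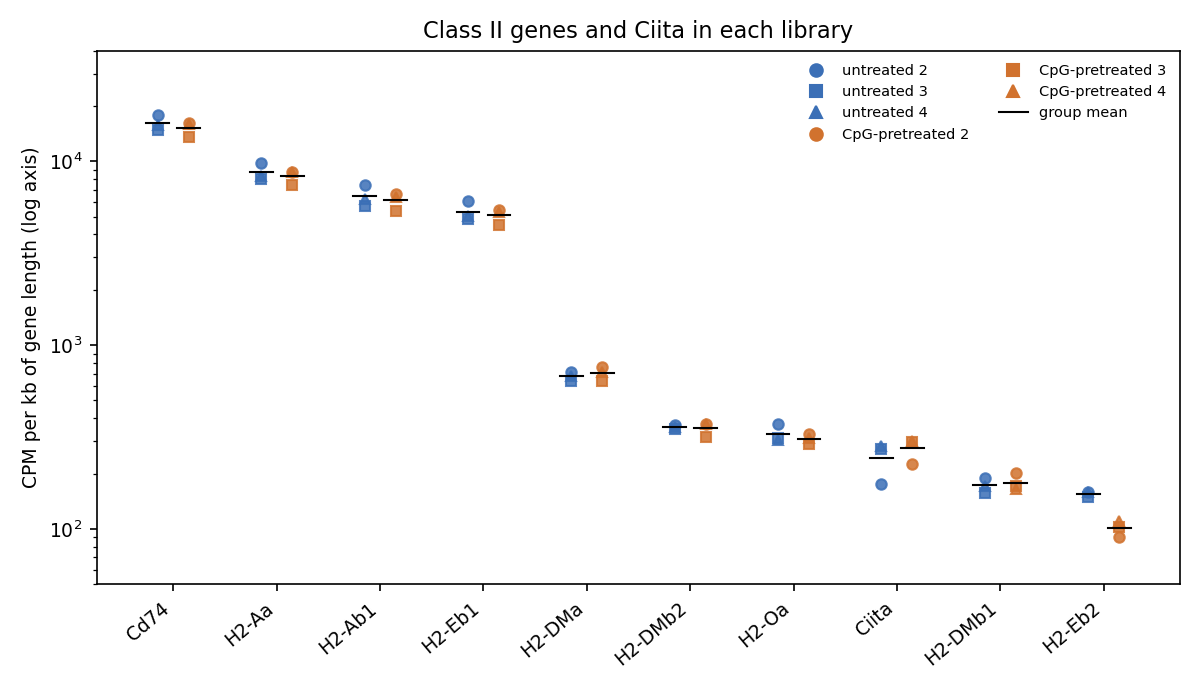
CPM per kilobase of gene length (log axis) for the 10 genes in each library, ordered by the untreated mean, with blue for untreated and orange for CpG libraries, symbols for the replicate number and black lines for group means. The 4 most abundant genes lie at 4521 or above and the others at 760 or below, and only H2-Eb2 shows groups that do not overlap.

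Cd74 encodes the invariant chain and had the most counts of all genes tested. Untreated libraries 2, 3 and 4 had 25391, 21076 and 22322 CPM, and their CpG counterparts had 22987, 19250 and 22630 CPM. Cd74 lies on chromosome 18 (60803849 to 60812652, GRCm38.p6). The groups overlapped, with the highest value in untreated 2 and the lowest in CpG 3. The log2 fold change of CpG over untreated was -0.08 (SE 0.11, edgeR adjusted p = 0.863), with a 95% interval on the fold scale of 0.791 to 1.12.

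H2-Aa and H2-Ab1 encode the alpha and beta chains of I-A, the class II molecule that C57BL/6 mice carry at the cell surface. H2-Aa had 10536, 8551 and 8859 CPM in untreated 2, 3 and 4, and 9398, 7920 and 9370 CPM in their CpG counterparts. H2-Ab1 had 8873, 6843 and 7470 CPM, then 7971, 6378 and 7611 CPM in the same order. Both sets of values overlapped between groups and were highest in untreated 2 and lowest in CpG 3. The log2 fold changes were -0.07 (SE 0.12) for H2-Aa and -0.08 (SE 0.13) for H2-Ab1, with edgeR adjusted p of 0.915 and 0.908.

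H2-Eb1 encodes the beta chain of I-E. C57BL/6 mice make no I-E at the cell surface because their alpha chain gene H2-Ea is defective, and H2-Ea had 4, 1 and 5 counts without CpG and 1, 2 and 0 counts with it. H2-Eb1 itself had 10195, 8091 and 8393 CPM without CpG and 9076, 7546 and 8849 CPM with it. The groups overlapped, and the log2 fold change was -0.07 (SE 0.12, edgeR adjusted p = 0.917).

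H2-Eb2 is a further E beta gene that lies beside H2-Eb1. It fell after CpG. Untreated libraries 2, 3 and 4 had 534, 504 and 538 CPM, and their CpG counterparts had 304, 346 and 373 CPM. Every CpG library was below every untreated one, as in 9.47% of all genes tested (9.2% had the reverse order, 18.7% either one). The means were 525 ± 18.1 and 341 ± 34.8 CPM (SD, n = 3 per group). The log2 fold change was -0.62 (SE 0.10, 95% interval -0.86 to -0.38, edgeR adjusted p = 0.0434), so that the CpG mean was 65.0% of the untreated mean. It ranked 67th of the 11602 genes by adjusted p. The difference was -0.81, -0.54 and -0.53 on the log2 scale in pairs 2, 3 and 4 of equal replicate number.

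Tools differed widely on H2-Eb2. DESeq2 on all libraries gave an adjusted p of 5.2e-05, and edgeR with the replicate block gave 0.000289. The call for H2-Eb2 in the main edgeR fit lay close to the threshold. It was lost by limma-voom (adjusted p = 0.0550) and on leaving out any library other than CpG 4, with edgeR adjusted p of 0.0615, 0.170 and 0.175 without untreated 2, 3 and 4 and of 0.158 and 0.149 without CpG 2 and 3, while the log2 fold change stayed between -0.65 and -0.55 in the fits without these libraries. Levels of several markers of other or overlapping cell populations differed between the same groups, and their part in the fall of H2-Eb2 was not tested. Of 12 conventional dendritic cell markers edgeR called 1, Esam, at -0.75 on the log2 scale (adjusted p = 0.0444), and 4 were called lower with the replicate number as a block. Over all genes 0.974% were called without the block, and 3.78% lower and 4.73% higher with it. The block added Cd4 at -0.51 (adjusted p = 0.251 without and 0.0215 with it), Cd209a at -0.68 (0.0885 and 0.000301) and Mgl2 at -1.22 (0.233 and 0.0243). In the same list Clec10a had 0.54 and Itgam 0.28, neither called in either fit, and 9 of the 12 were below 0. The list's summed level was 5359 to 5893 CPM without and 4767 to 5803 CPM with CpG. Of 9 markers of the CD8-positive subset, cDC1, 7 were above 0 with a median of 0.56, 0 of them called and 4 called higher with the block, and their sums were 240 to 265 CPM without and 242 to 370 CPM with CpG. All 10 macrophage markers had a negative log2 fold change, 3 of them called and 8 with the block, with a list median of -1.24. The erythroid genes given above had the opposite direction, and with them taken out of the table H2-Eb2 had -0.62 (edgeR adjusted p = 0.0444).

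**Figure D2:**
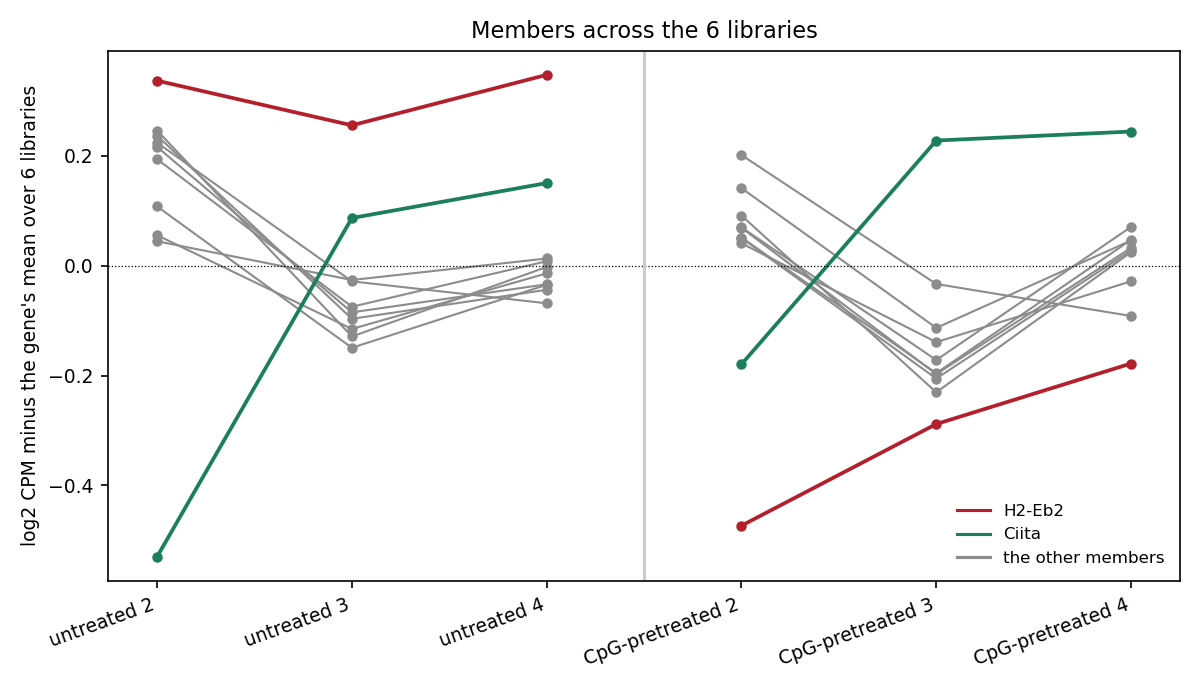
Log2 CPM of each member minus its own mean over the 6 libraries, with the untreated libraries on the left and the CpG ones on the right. Lines join the values of a gene within a group and imply no order of the replicates; H2-Eb2 (red) is above 0.25 in all untreated and below -0.17 in all CpG libraries, while Ciita (green) is lowest in untreated 2, where 9 members are above their own means.

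The H2-DM genes, whose products load peptide onto class II molecules, showed no called change. H2-DMa, the alpha chain gene, was at 560, 497 and 533 CPM without CpG and 594, 498 and 556 CPM with it (libraries 2, 3 and 4). Its log2 fold change was 0.05 (SE 0.10, edgeR adjusted p = 0.927). H2-DMb1, a beta chain gene, was at 242, 203 and 219 CPM and at 258, 220 and 211 CPM, a log2 fold change of 0.05 with SE 0.12 (adjusted p = 0.935). Its neighbour H2-DMb2 was at 288, 274 and 282 CPM and at 293, 248 and 293 CPM, a log2 fold change of -0.02 with SE 0.10 (adjusted p = 0.975). In all 3 genes the groups overlapped. The DM beta genes are similar copies. Of the 50-base windows of their longest GENCODE transcripts, 27.2% of those of H2-DMb1 and 30.9% of those of H2-DMb2 also occurred in another gene, and at 100 bases 13.7% and 12.9%. Which copy a read came from is therefore uncertain, and their sum was 503 ± 26.7 CPM without and 508 ± 42.1 CPM with CpG. H2-Eb1 and H2-Eb2 shared no window of either length with any other gene.

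H2-Oa encodes the alpha chain of H2-O, the inhibitor of H2-DM, and is best known from B cells. It was at 391, 328 and 319 CPM without CpG and 344, 304 and 328 CPM with it (libraries 2, 3 and 4), and the groups overlapped. The log2 fold change was -0.09 (SE 0.11, edgeR adjusted p = 0.853). All 14 listed B cell markers were detected, with sums of 646 to 668 CPM without and 602 to 786 CPM with CpG, and 9 passed the filter on low counts. Pax5, Ebf1 and Cd79a, given above, were near 0, with Ebf1 at 0 in every CpG library and Vpreb3 at 0 in every untreated one. Most of the sum came from Cd22 (426 and 460 CPM) and Spib (136 and 162 CPM), and Cd79b had 29.1 and 25.8 CPM and Ms4a1 19.9 and 18.7 CPM. By edgeR 0 of the 9 were called, with 3 at an unadjusted p under 0.05, against 12.8% of all genes. With the block, which called 3.78% of all genes lower, 2 were called lower. These were Cr2 at -1.40 (adjusted p = 0.0764, and 0.00243 with the block) and Blk at -0.54 (0.123 and 0.0231). The part of the B cell markers in the values of H2-Oa and H2-Ob was not tested. The beta chain gene H2-Ob, which is not among the 10, was at 711, 672 and 601 CPM and at 526, 573 and 565 CPM. Its CpG values all lay below its untreated ones, as in 9.47% of all genes tested. The log2 fold change of H2-Ob, -0.25 (SE 0.10), was not called (adjusted p = 0.324, and 0.0744 with the replicate number as a block).

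Ciita had 1004, 1540 and 1609 CPM in untreated 2, 3 and 4, and 1280, 1698 and 1717 CPM in their CpG counterparts. Each group was lowest in its number 2 library, and the groups overlapped. The log2 fold change was 0.18 (SE 0.19, edgeR adjusted p = 0.821, and 0.143 with the block), with a fold interval of 0.835 to 1.53 that was the widest of the 10. Within pairs 2, 3 and 4 the differences were 0.35, 0.14 and 0.09 on the log2 scale. These counts per gene do not separate the promoters from which Ciita is transcribed. At 5693 bases Ciita was the longest of the 10, and library values varied with gene length. Across the 11602 genes, the Spearman correlation of a library's deviation from its group mean with gene length was -0.67 and -0.54 in untreated 2 and CpG 2, and 0.23 to 0.53 in the other libraries. Deviations within a group sum to 0, so these values are not independent, and the part of gene length in the Ciita values was not tested. From pairs 3 and 4 alone, the edgeR log2 fold change was 0.12 for Ciita (adjusted p = 0.558) and -0.53 for H2-Eb2 (adjusted p = 0.0453).

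For the 8 members other than H2-Eb2 and Ciita, the log2 fold changes lay between -0.09 and 0.05, and their 95% intervals on the fold scale together spanned 0.772 to 1.25. The interval of H2-Eb2 on that scale was 0.551 to 0.766. Several members also had nearly the same pattern over the libraries. Of the 10 members, 5 were highest in untreated 2 and 6 were lowest in CpG 3. After centring on each gene's own mean, H2-Aa and H2-Eb1 differed by a root mean square of 0.014 in log2 CPM over the 6 libraries, and Cd74 and H2-Aa by 0.022. The nearest member was at 0.31 for H2-Eb2 (Cd74) and 0.32 for Ciita (H2-DMb2). The lengths of Cd74, H2-Aa, H2-Ab1 and H2-Eb1 were 1069 to 1669 bases, against 3380 for H2-Eb2.

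**Figure D3:**
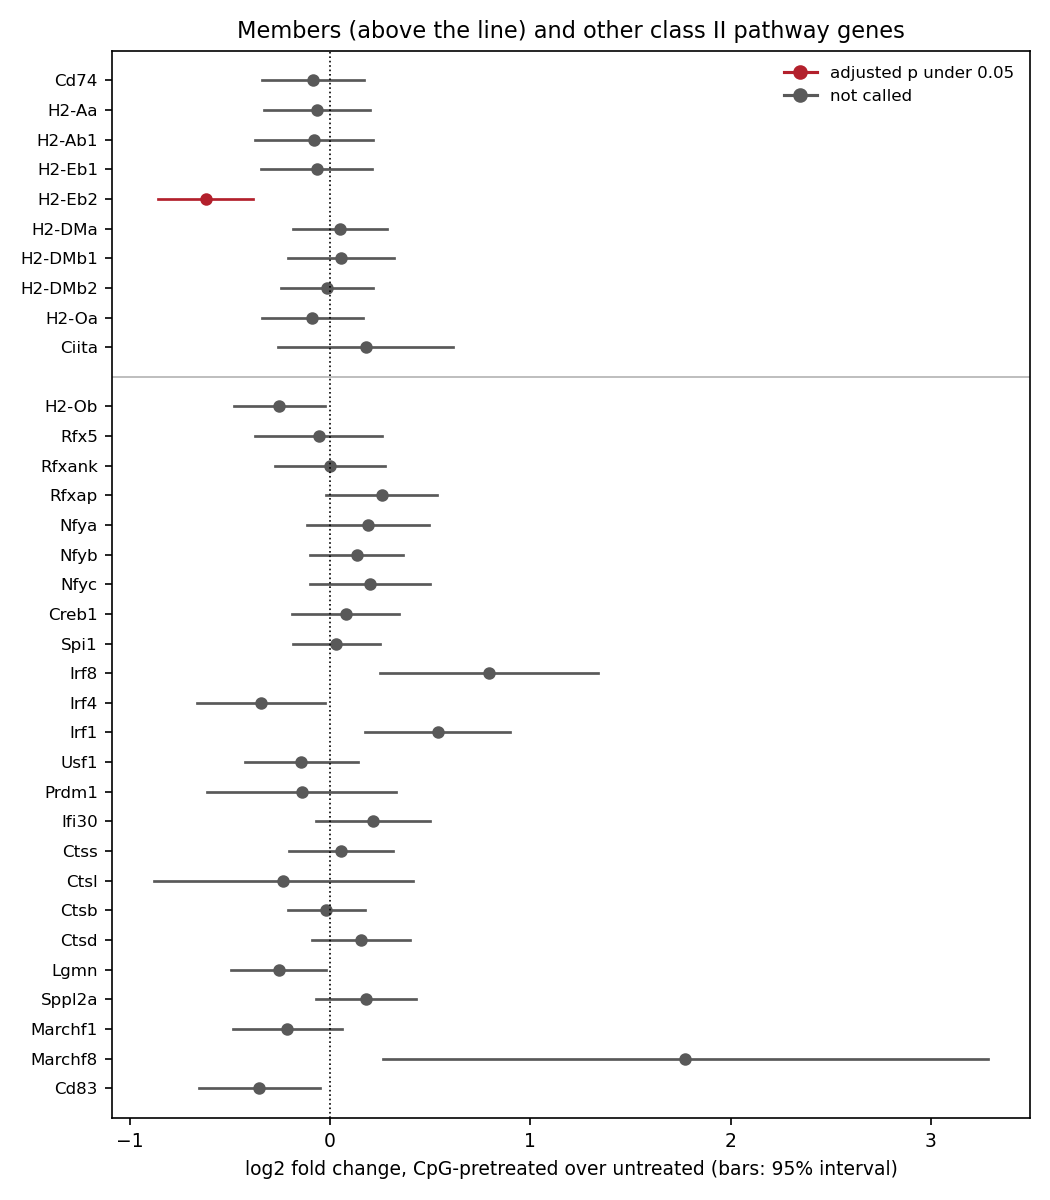
Log2 fold change of CpG over untreated with its 95% interval for the 10 members, above the line, and for 24 tested genes of the class II pathway, below it, from edgeR's quasi-likelihood fit. Red marks an adjusted p under 0.05, which H2-Eb2 alone of the genes shown reached, and 8 of the other members sit within 0.1 of 0.

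Levels were compared between genes as CPM per kilobase of the deposited gene length. The untreated means ran from 16205 ± 1569 for Cd74 through 8714 ± 999 for H2-Aa, 6478 ± 871 for H2-Ab1 and 5328 ± 682 for H2-Eb1 to 679 ± 40.1 for H2-DMa (SD, n = 3). Below these stood H2-DMb2 at 358 ± 8.76, H2-Oa at 330 ± 37.2, Ciita at 243 ± 58.2, H2-DMb1 at 172 ± 15.5 and H2-Eb2 at 155 ± 5.36. The CpG means had the same order, with H2-Eb2 at 101 ± 10.3. Cd74 exceeded H2-Aa in all 6 libraries, by 1.82 to 1.90 times, without overlap of their ranges. H2-Aa exceeded H2-Ab1 in all 6 libraries (1.32 to 1.40 times), as did H2-Ab1 H2-Eb1 (1.18 to 1.25 times), although the ranges over libraries overlapped. H2-Eb1 stood 7.09 to 8.53 times above H2-DMa. The neighbours H2-DMb2 and H2-Oa, H2-Oa and Ciita, and Ciita and H2-DMb1 each exchanged places in 1 of the 6 libraries, so their order was not larger than the spread.

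Ratios of these levels within a library do not depend on how libraries are scaled. Each of 6 was compared between groups by an exact two-sided permutation test, for which 3 against 3 libraries cannot go below p = 0.10. The H2-Eb2 to H2-Eb1 ratio was 0.0258, 0.0308 and 0.0316 without CpG and 0.0166, 0.0226 and 0.0208 with it. The groups did not overlap, with a difference of -0.56 in the log2 ratio (exact permutation p = 0.1, 0.6 after Benjamini-Hochberg adjustment over the 6 ratios). The H2-Ab1 to H2-Aa ratio was 0.755, 0.717 and 0.756 without CpG and 0.760, 0.722 and 0.728 with it, a log2 difference of -0.01 (exact permutation p = 1). H2-Eb1 to H2-Ab1 differed by 0.01 (exact p = 0.7) and Cd74 to H2-Ab1 by -0.01 (exact p = 0.9). The H2-Oa to H2-DMa ratio compares the alpha chain genes of inhibitor and editor, without the beta chain gene H2-Ob given above. This ratio was 0.520, 0.491 and 0.445 without CpG and 0.431, 0.454 and 0.439 with it. The log2 difference was -0.13 with overlap (exact permutation p = 0.2, 0.6 after adjustment). H2-DMb2 to H2-DMb1 differed by -0.07 (exact p = 0.6).

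**Figure D4:**
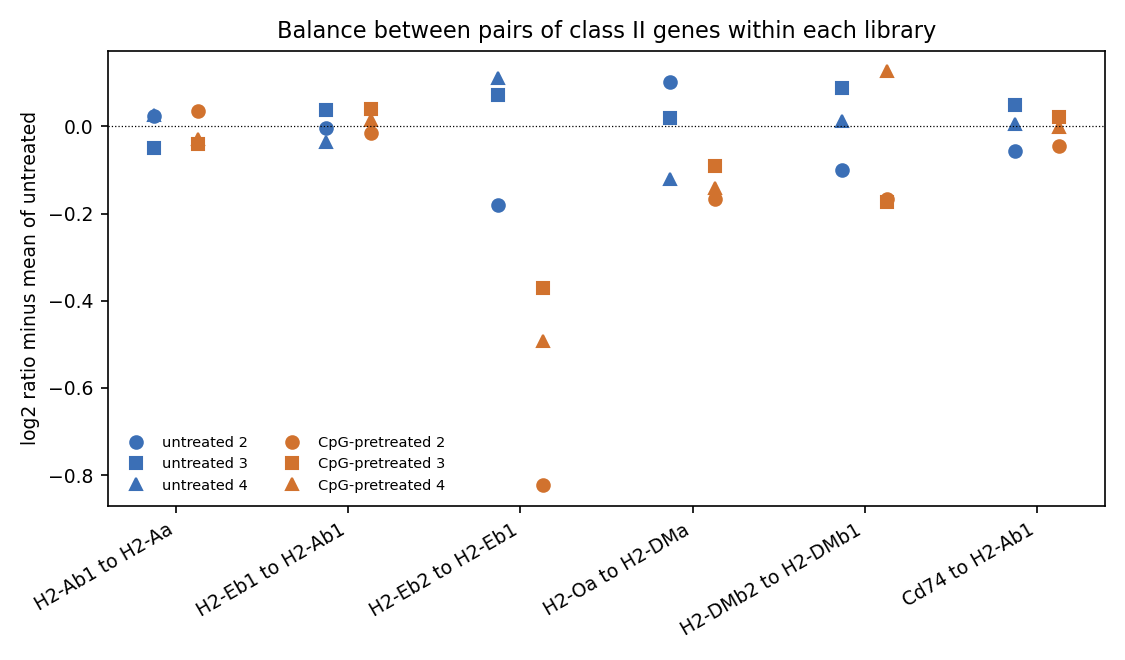
Log2 ratio of 2 class II genes per kilobase within each library, minus the mean of the untreated libraries, for 6 gene pairs, with blue for untreated and orange for CpG libraries. Only the H2-Eb2 to H2-Eb1 ratio has groups that do not overlap, with a group difference of -0.56.

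Beside the chain genes H2-Ob and H2-Ea given above, other genes of the pathway were followed in 3 lists. Of 7 promoter factors (Rfx5, Rfxank, Rfxap, Nfya, Nfyb, Nfyc and Creb1), which bind the X and Y boxes, 0 passed the edgeR test, 0 had an unadjusted p under 0.05, and 0 were called with the block. Over all genes the shares were 0.974%, 12.8% and 8.52%, in that order. The median log2 fold change of the 7 factors was 0.13. The most abundant of them were Nfya, a subunit of the CCAAT-binding factor NF-Y, with 0.19 (SE 0.13, adjusted p = 0.664), and Creb1 with 0.08 (SE 0.12, adjusted p = 0.891).

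Of the 6 regulators of Ciita transcription reported here (Spi1, Irf8, Irf4, Irf1, Usf1 and Prdm1), 0 passed the edgeR test and 3 had an unadjusted p under 0.05, against 12.8% of all genes, while 2, Irf1 and Irf8, rose in the fit with the replicate block, in which 4.73% of all genes were called higher. Their median log2 fold change was -0.06. Irf1 encodes a transcription factor that acts at the interferon-responsive Ciita promoter. It had 287, 265 and 252 CPM without CpG and 391, 474 and 302 CPM with it. The groups did not overlap, and 9.2% of all genes tested were likewise higher in every CpG library. The log2 fold change of Irf1 was 0.54 ± 0.16 (SE, edgeR adjusted p = 0.175, and 0.00845 with the block). Irf8 had 41.2, 44.9 and 37.0 CPM without CpG and 82.5, 87.2 and 43.6 CPM with it, groups that overlapped, with 0.79 ± 0.24 (SE) on the log2 scale (edgeR adjusted p = 0.179, and 0.0185 with the block). On all libraries without the block, DESeq2 called both (adjusted p = 0.0457 for Irf1 and 0.0312 for Irf8), with 428 genes called in all. By limma-voom neither was called (adjusted p = 0.211 and 0.271). Without CpG 4, the lowest of its group for both genes, edgeR called both (adjusted p = 0.0307 for Irf1 and 0.00514 for Irf8). That fit called 386 genes over the whole table, against 113 in the main fit. Leaving out any other library called neither, with edgeR adjusted p of 0.152 to 0.453 for Irf1 and 0.283 to 0.499 for Irf8. Summed erythroid and cDC1 markers were also lowest of the group in CpG 4. Irf8 is itself one of the 9 cDC1 markers, and the others called higher with the block, Xcr1 (1.27, adjusted p = 0.00474), Tlr3 (0.80, 0.00286) and Itgae (2.28, 0.0213), were lowest there too. Of the cDC1 markers not called, Clec9a (0.01), Cd8a (0.53) and Naaa (0.56) were also lowest there. Cadm1 (-0.40) and Batf3 (-0.27) had the opposite sign and were not. The part of these markers in the values of Irf1 and Irf8 was not tested. Spi1, encoding PU.1, was at 619 ± 42.2 and 632 ± 29.6 CPM (0.03, adjusted p = 0.955). Ciita itself had the value of 0.18 given above in the same libraries.

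Of 10 genes of class II processing and traffic (Ifi30, Ctss, Ctsl, Ctsb, Ctsd, Lgmn, Sppl2a, Marchf1, Marchf8 and Cd83), 0 passed the edgeR test and 0 were called with the block, while 3 had an unadjusted p under 0.05. Over all genes the shares were 0.974%, 8.52% and 12.8%, in that order. The median log2 fold change of the 10 genes was 0.02. Ifi30, the lysosomal thiol reductase GILT, was at 1161 ± 147 and 1347 ± 147 CPM (0.21, SE 0.12, adjusted p = 0.563). Ctss, cathepsin S, which degrades the invariant chain, was at 1138 ± 112 and 1182 ± 117 CPM (0.05, SE 0.11, adjusted p = 0.933).

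Whether reads of overlapping genes were kept apart is unknown, since no source used here states the strand setting of the counting. In GENCODE M21 (GRCm38), exons of Ciita overlapped those of Dexi by 329 bases, of H2-DMa those of Brd2 by 360 bases and of H2-Oa those of BC051537 by 321 bases, all on the opposite strand, and those of Cd74 overlapped Mir5107 by 12 bases on the same strand. Dexi was at 48.7 and 46.9 CPM, Brd2 at 482 and 470 CPM and BC051537 at 3.25 and 3.21 CPM without and with CpG (means, n = 3), and none of these 3 was called by edgeR (adjusted p of 0.914 to 0.989). Exons of H2-Eb2 overlapped no other gene.

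Among 8977 named candidate genes (average log2 CPM at or above 3), those nearest to H2-Eb2 over the 6 libraries were Nxpe4, Daglb and Zscan2. Their root mean square distances in centred log2 CPM were 0.055, 0.063 and 0.075. Daglb, a diacylglycerol lipase gene, fell by 0.60 on the log2 scale (edgeR adjusted p = 0.0492), while Nxpe4 had -0.59 (adjusted p = 0.0609) and Zscan2 -0.64 (adjusted p = 0.110). Nearest to Ciita were Itsn2, Pds5a and Usp32, at 0.026, 0.035 and 0.039, with lengths of 6216, 4146 and 6924 bases and log2 fold changes of 0.17, 0.17 and 0.16 (adjusted p of 0.844 to 0.852). With 6 libraries and so many candidates, such closeness describes the pattern only. Because these genes were picked by that closeness, log2 fold changes near those of H2-Eb2 and Ciita follow from the choice. Their adjusted p values therefore lend no separate support.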

How the data were processed

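The authors deposited 1 table of raw read counts (27179 Entrez genes, with gene lengths) and 6 single-sample copies whose counts were identical to it. The submitters' processing notes name CASAVA, featureCounts and the build mm10. No source used here gives the aligner, strand setting or treatment of multimapping reads. Symbols and positions came from RefSeq for GRCm38.p6, which matched 25275 IDs; the others held 0.327% of the counts.

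Groups followed the labels. Counts were analysed with edgeR 4.0.16 (R 4.3.3). Genes were kept by filterByExpr (minimum count 10, minimum total 15), normalized by TMM and tested by the robust quasi-likelihood test of CpG-pretreated against untreated, two-sided, on 3 against 3 libraries. The call threshold was a Benjamini-Hochberg adjusted p of 0.05 over all 11602 genes. Each SE was the log2 fold change over the square root of F. The fit was tested on simulated data. Alternatives used DESeq2 1.42.0, limma-voom (limma 3.58.1), other scalings and filters, and left out libraries.

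Members and lists were chosen with earlier results of these data known. A gene of the list of Ciita regulators is not reported here. All 10 members are named, pathway genes where called with or without the block or among the 2 most abundant of a list, and the 3 genes nearest in pattern to H2-Eb2 and to Ciita. H2-Ea, marker genes and overlapping genes were named outside that rule, after their values were seen. Both groups carry the numbers 2, 3 and 4, whose meaning the labels leave unstated. Deviations from group means correlated across genes at 0.45, 0.24 and 0.3 between same-numbered libraries, each over 0.1. In the fits with the block the numbers were therefore taken to pair samples, on the data alone. The main fit had no block, and H2-Eb2 had an edgeR adjusted p of 0.0434 in it and 0.000289 with the block. Both number 2 libraries had the negative correlation with gene length given above, and its part in the 0.45 was not tested. No pair of libraries of a group was alike within sampling noise (chi-square per degree of freedom 3.30 to 20.8).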

Additional observations from a re-analysis of the deposited data

How the results depend on the processing

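H2-Eb2 had a negative log2 fold change in all 17 alternatives (-0.69 to -0.53) and was called in 11. The 11 include fits without the erythroid genes, without the members in the scaling and from pairs 3 and 4 only. These were chosen after seeing the data (edgeR adjusted p of 0.0444, 0.0433 and 0.0453). The other 9 members were called in none of the 17. The number of members called lower was 0 by limma-voom, and 0 to 1 on leaving out 1 library by edgeR, with 1 at an unadjusted p under 0.05 in each of these fits. With the replicate block it stayed at 1. The genes called over the whole table numbered 113, and 988 with the replicate block, 428 by DESeq2, 41 by limma-voom, 189 with no filter on low counts, 67 from pairs 3 and 4 only (chosen after seeing the data), and 0 to 386 on leaving out 1 library. The 0 arose without CpG replicate 2 or 3, where edgeR gave 1065 and 1107 genes an unadjusted p under 0.05 (other tools were not run there). Of the 24 other pathway genes tested, 0 were called by edgeR (7 at an unadjusted p under 0.05). With the replicate block 2 were called and by DESeq2 also 2, in both cases Irf8 and Irf1. By limma-voom 0 were called (6 at an unadjusted p under 0.05). Leaving out 1 library gave 0 to 4, the 4 without CpG replicate 4.

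Signs near 0 were not stable. Leaving out 1 library gave log2 fold changes of -0.14 to 0.0087 for Cd74, -0.13 to 0.045 for H2-Aa, -0.16 to 0.046 for H2-Ab1, -0.13 to 0.057 for H2-Eb1, -0.0079 to 0.13 for H2-DMa, -0.040 to 0.14 for H2-DMb1, -0.056 to 0.067 for H2-DMb2 and -0.15 to 0.022 for H2-Oa. Ciita ran from 0.0044 to 0.30, the lower end without untreated replicate 2. Among pathway genes, Nfya ran from 0.075 (without untreated replicate 2) to 0.27, Ifi30 from 0.12 (without CpG replicate 2) to 0.34 (without untreated replicate 2), Creb1 from -0.017 to 0.15, Ctss from -0.026 to 0.14 and Spi1 from -0.0082 to 0.10, and Spi1 had -0.0035 with upper quartile scaling. The log2 ratio differences were -0.036 to 0.0029 for H2-Ab1 to H2-Aa, -0.0052 to 0.032 for H2-Eb1 to H2-Ab1 and -0.037 to 0.017 for Cd74 to H2-Ab1. Those of H2-Oa to H2-DMa ran from -0.19 (without untreated replicate 4) to -0.083 (without untreated replicate 2), of H2-DMb2 to H2-DMb1 from -0.17 (without CpG replicate 4) to -0.021 (without CpG replicate 3) and of H2-Eb2 to H2-Eb1 from -0.66 to -0.43. Their causes were not tested. With paired sign flips over the replicate block, for which 3 pairs cannot go below p = 0.25, the H2-Eb2 to H2-Eb1 ratio gave an exact p of 0.25. The least counted member had 1620 counts in its lowest library, which bears on counting error only.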
